A study of Homo sapiens with 8 samples.

Results

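The 9 genes NTSR1, VIPR1, ADORA2B, F2R, F2RL1, LPAR1, BDKRB1, BDKRB2 and OXTR encode cell-surface receptors for peptides, adenosine, proteases and a lysophospholipid. They were taken by symbol from the 60624 genes listed in every library of A549, a human lung adenocarcinoma cell line. The list was chosen by the lower NTSR1 level with indisulam and the higher VIPR1 level with SPHINX31, so the values of both single treatments against untreated cells are given as a description that supports nothing. All 9 were among the 18661 genes that passed the filter on low counts, and each had at least 46 counts in every library, so none passed through a single group.

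The study compared 4 groups of 2 libraries each: untreated A549 cells, cells given indisulam, cells given SPHINX31, and cells given both, here called the combination. Indisulam is an aryl sulfonamide that causes degradation of the splicing factor RBM39, and SPHINX31 inhibits the kinase SRPK1, which phosphorylates serine- and arginine-rich splicing factors. For A549 the methods of the study gave 24 h of treatment with 0.5 µM indisulam, 5 µM SPHINX31 or both. The labels' treatment protocol named 2 µM indisulam for 18 h in every sample, the untreated ones included. The methods give that dose and time for an experiment on another cell line. The label text thus matches that experiment, and its conflict with the A549 methods is not resolved in the labels. No vehicle was named for the untreated cells. The libraries of a group were labelled technical duplicates of one cell line, and whether they shared a culture or an RNA preparation was not given. Every p-value below thus measures the spread between such duplicates and cannot be taken as the spread between independent cultures.

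Between 51727369 and 63186989 reads were counted on genes per library, with a median of 57337791. The duplicates of a group were not copies of one another, since the variance between their counts was 6.59 to 10.7 times that of sampling noise (chi-square per degree of freedom). Levels are given as CPM, counts per 1000000 counts on genes after TMM scaling. The 5 epithelial markers KRT7, KRT8, KRT18, KRT19 and CDH1 had at least 3888 counts in every library, whereas the 9 markers of leukocytes, fibroblasts and endothelium summed to 5.92 to 7.16 CPM with CD3E at 0 in all 8 libraries. Between the groups, the summed epithelial markers ranged from 9854 to 9932 CPM in untreated cells, 8944 to 9255 with indisulam, 8863 to 8881 with SPHINX31 and 8463 to 8551 with the combination, and the part of this difference in the receptor values was not tested.

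All of these proteins are seven-helix receptors that act through heterotrimeric G proteins. NTSR1, F2R, F2RL1, BDKRB1, BDKRB2 and OXTR signal mainly through Gq to phospholipase C and calcium, VIPR1 and ADORA2B raise cyclic AMP through Gs, and LPAR1 couples to Gi, Gq and G12/13. In airway epithelium and its tumours such receptors are known for regulating secretion, barrier function, migration and growth. Transcript levels do not report the amount or activity of the receptor protein.

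The sequences upstream of NTSR1 and VIPR1 are shown because the list was chosen by these members, which moved under different drugs. Each is the 250 bases before the RefSeq transcription start (GRCh38.p14), 5′ to 3′ on the gene's strand, with the GC box GGGCGG or its reverse complement CCGCCC in capitals. NTSR1 lies on the plus strand at chr20:62708586-62708835 and VIPR1 on the plus strand at chr3:42502393-42502642, the latter before the start of the canonical transcript.
NTSR1: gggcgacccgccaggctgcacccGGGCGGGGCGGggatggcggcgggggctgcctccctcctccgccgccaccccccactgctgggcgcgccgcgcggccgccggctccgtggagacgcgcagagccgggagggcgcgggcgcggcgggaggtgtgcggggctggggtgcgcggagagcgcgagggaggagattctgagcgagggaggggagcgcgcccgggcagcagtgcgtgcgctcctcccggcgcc
VIPR1: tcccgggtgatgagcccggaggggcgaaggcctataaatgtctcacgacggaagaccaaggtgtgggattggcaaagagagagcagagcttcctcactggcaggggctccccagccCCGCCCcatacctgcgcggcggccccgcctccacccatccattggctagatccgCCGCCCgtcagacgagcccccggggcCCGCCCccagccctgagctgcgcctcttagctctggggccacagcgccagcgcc
The NTSR1 window holds 2 GC boxes, which share a base, and is 82.0% G or C, against a median of 58% over all promoter windows. The VIPR1 window holds 3 GC boxes and 2 CCAAT boxes (CCAAT or ATTGG) and is 69.2% G or C. Neither window holds the cyclic AMP response element TGACGTCA, which is its own reverse complement. Over 35116 windows of the same length, 42.6% held a GC box, 32.0% a CCAAT box and 1.65% a TGACGTCA, so both motifs that were found are common ones. In all, 8 of the 9 genes had entries in the promoter table, 16 windows together. Among these is another VIPR1 window, at chr3:42489049-42489298, before a start upstream of the canonical one. It holds 0 GC boxes and 0 CCAAT boxes and is 40.4% G or C. Which VIPR1 start these cells use was not tested. A match is a description of the letters and not of a bound site.

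On GRCh38, NTSR1 (ENSG00000101188) spans chromosome 20 from 62708836 to 62762771 and VIPR1 (ENSG00000114812) spans chromosome 3 from 42489299 to 42537573, with a further annotated start upstream of the canonical one. F2R and F2RL1 lie on chromosome 5, 83162 bases apart, and BDKRB2 and BDKRB1 lie on chromosome 14, 12043 bases apart, with no coding gene between the members of either pair. Receptors of this kind are often built from few exons, and 7 of the 9 canonical transcripts had at most 4 exons, compared with 20.8% of 14010 tested protein-coding genes. The exceptions were VIPR1 with 13 exons and LPAR1 with 6. A readthrough gene on the same strand, listed at 0 counts in all libraries, covers 15.9% of the exonic bases of BDKRB1 and 7.0% of those of BDKRB2. Reads from those bases may have been assigned to neither gene, so the levels of both are uncertain to that extent. Exons of BDKRB1 also overlap a noncoding gene on the opposite strand, which had 16 to 23 counts against 58 to 113 for BDKRB1. With the strand setting of the counting not given, the BDKRB1 values are uncertain for this reason too.

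NTSR1, the high-affinity receptor for the peptide neurotensin, had the largest change of the 9. The list was chosen by its fall with indisulam, so this rank and the separation of libraries below are a description. Its level was 25.45 and 21.13 CPM in the untreated libraries, 4.09 and 4.95 with indisulam, 34.0 and 30.2 with SPHINX31, and 6.30 and 6.53 with the combination. The 4 libraries that had received indisulam were all below the 4 that had not, and no library of any group overlapped another group. Given with SPHINX31, indisulam was followed by a 4.99-fold lower NTSR1 level than SPHINX31 alone (log2 fold change -2.32, SE 0.108, edgeR quasi-likelihood test, Benjamini-Hochberg adjusted p = 2.9e-09). These 4 libraries are not those of indisulam alone and untreated cells. The receptors were chosen with earlier results of these data known, so this p-value may not be independent of the choice of NTSR1. Among the 12494 genes whose log2 CPM averaged 1 or more, 17 had a lower log2 fold change in this comparison. As a description, the level with indisulam alone was 5.17-fold below that of untreated cells (log2 fold change -2.37, SE 0.114). SPHINX31 alone differed from untreated by 0.46 (SE 0.095), and the combination differed from indisulam alone by 0.51 (SE 0.128), both on the log2 scale. The combination remained 3.63-fold below untreated (log2 fold change -1.86, SE 0.108). The log2 change of the combination minus the sum of the changes with each drug was 0.05 (SE 0.159), given without a test.

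VIPR1, a receptor for vasoactive intestinal peptide, moved with SPHINX31. Its level was 5.37 and 4.998 CPM in untreated cells, 5.45 and 5.99 with indisulam, 15.04 and 14.3 with SPHINX31, and 12.8 and 11.2 with the combination. The libraries with SPHINX31 were all above the libraries without it, and the combination lay between indisulam alone and SPHINX31 alone. This separation is a description, since VIPR1 was chosen by its rise with SPHINX31. Given with indisulam, SPHINX31 was followed by a 2.10-fold higher VIPR1 level (log2 fold change 1.07, SE 0.096, edgeR adjusted p = 9.28e-05). These libraries are not those of SPHINX31 alone and untreated cells, but for the same reason this p-value may not be independent of the choice of VIPR1. In that comparison 10 of the 12494 genes above the floor of 1 had a higher log2 fold change. As a description, VIPR1 with SPHINX31 alone was 2.83-fold above untreated cells (log2 fold change 1.499, SE 0.095), and indisulam alone gave 0.14 (95% interval -0.08 to 0.36). The combination was 2.31-fold above untreated, and its log2 level differed from SPHINX31 alone by -0.29 (SE 0.087). The log2 change of the combination minus the sum of both single changes was -0.43 (SE 0.136), likewise without a test. This value uses the untreated and SPHINX31 libraries that chose VIPR1, so nothing is read from it.

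**Figure D1:**
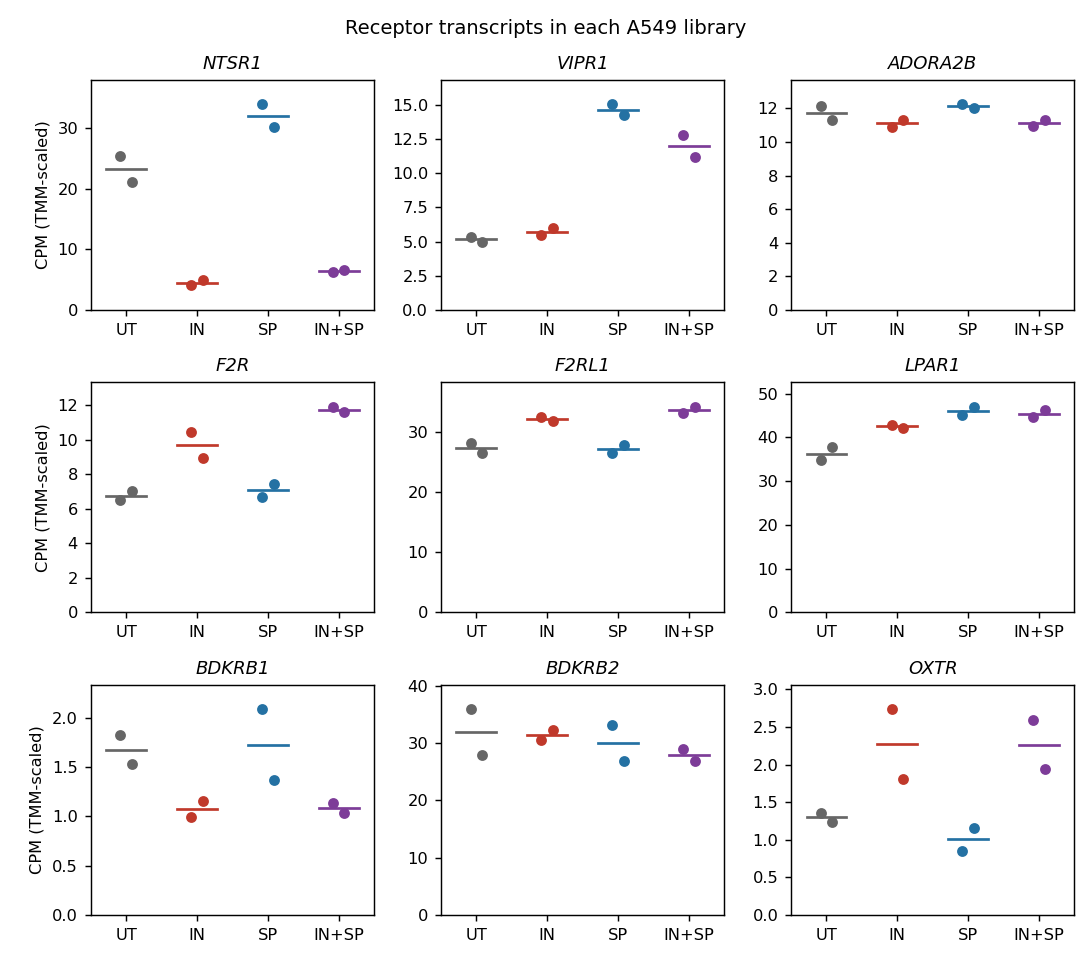
Level of each receptor transcript (CPM after TMM scaling, linear axis from 0) in untreated (UT), indisulam (IN), SPHINX31 (SP) and combination (IN+SP) libraries; points are libraries and the bar is the mean of 2. NTSR1 was at 4.09 to 6.53 CPM in the 4 libraries with indisulam and at 21.1 to 34.0 CPM in the 4 without it, whereas VIPR1 was at 11.2 to 15.04 CPM with SPHINX31 and at 4.998 to 5.99 CPM without it.

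Among the other 7 receptors the differences were smaller than those of NTSR1. OXTR differed 2.24-fold between the combination and SPHINX31, beside 2.10-fold for VIPR1 between the combination and indisulam. ADORA2B, the low-affinity Gs-coupled adenosine receptor, was at 12.1 and 11.3 CPM in untreated cells, 10.9 and 11.3 with indisulam, 12.24 and 12 with SPHINX31, and 10.95 and 11.3 with the combination. Its whole range over 8 libraries was narrow, and no test of ADORA2B passed. The log2 fold change of the combination was -0.12 against SPHINX31 (95% interval -0.29 to 0.04, adjusted p = 0.197), 0.00 against indisulam (-0.16 to 0.17, adjusted p = 0.985) and -0.07 against untreated (-0.24 to 0.09, adjusted p = 0.443).

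The protease-activated receptors F2R (PAR1) and F2RL1 (PAR2), which are switched on by cleavage of their own N-terminus by thrombin and by trypsin-like proteases respectively, were both higher in the indisulam libraries. F2R was at 6.54 and 7.01 CPM in untreated cells, 10.5 and 8.97 with indisulam, 6.72 and 7.45 with SPHINX31, and 11.9 and 11.6 with the combination. Every F2R library with indisulam lay above every library without it. The combination was 1.66-fold above SPHINX31 (log2 fold change 0.73, SE 0.096, adjusted p = 3.46e-05) and 1.74-fold above untreated (0.80, SE 0.096, adjusted p = 1.44e-05). Against indisulam alone the combination was also higher in both libraries, but the log2 fold change of 0.27 (SE 0.093) did not pass (adjusted p = 0.099). F2RL1 was at 28.2 and 26.6 CPM in untreated cells, 32.5 and 31.9 with indisulam, 26.6 and 27.9 with SPHINX31, and 33.3 and 34.2 with the combination. As for F2R, its libraries with and without indisulam did not overlap, although the difference was 1.24-fold (log2 fold change of the combination against SPHINX31 0.31, SE 0.061, adjusted p = 8.94e-04). Against untreated the combination of F2RL1 was 1.23-fold higher (0.30, SE 0.060, adjusted p = 9.75e-04), and against indisulam alone it was not past the threshold (0.07, 95% interval -0.06 to 0.20, adjusted p = 0.555).

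LPAR1, a receptor for lysophosphatidic acid, was lowest in untreated cells, at 34.8 and 37.7 CPM. It was at 42.8 and 42.3 CPM with indisulam, 45.1 and 47.0 with SPHINX31, and 44.6 and 46.2 with the combination. Every treated library lay above both untreated libraries, and the combination overlapped SPHINX31 alone. The combination was 1.25-fold above untreated (log2 fold change 0.32, SE 0.059, adjusted p = 4.81e-04). It did not pass against SPHINX31 (-0.02, 95% interval -0.15 to 0.11, adjusted p = 0.796) or against indisulam (0.09, -0.03 to 0.22, adjusted p = 0.393). The departure of the combination from additive log2 changes was -0.25 for LPAR1 (SE 0.083) and did not pass (adjusted p = 0.461), the lowest adjusted p of the tested receptors for this term.

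The bradykinin receptors are neighbours in the genome and differed in level. Per kilobase of exon, BDKRB2 was at 4.67 CPM and BDKRB1 at 0.707 CPM in untreated cells. BDKRB2, the receptor for intact bradykinin, was at 35.9 and 28.02 CPM in untreated cells, 30.6 and 32.2 with indisulam, 33.2 and 26.9 with SPHINX31, and 29.0 and 26.8 with the combination. The duplicates differed as much as the groups did, and the combination did not pass against SPHINX31 (log2 fold change -0.11, 95% interval -0.35 to 0.13, adjusted p = 0.455), indisulam (-0.17, -0.41 to 0.07, adjusted p = 0.41) or untreated (-0.20, -0.43 to 0.04, adjusted p = 0.157). Without the second untreated library the last difference was -0.36 (adjusted p = 0.017), and without the first SPHINX31 library the difference from SPHINX31 changed sign to 0.07. BDKRB1, the receptor for des-Arg kinins that is induced in injured tissue, had 58 to 113 counts per library, which corresponded to 1.83 and 1.53 CPM in untreated cells, 1.00 and 1.16 with indisulam, 2.09 and 1.37 with SPHINX31, and 1.14 and 1.03 with the combination. All libraries with indisulam lay below all libraries without it. The combination was 1.58-fold below SPHINX31 (log2 fold change -0.66, SE 0.215, adjusted p = 0.0204) and 1.55-fold below untreated (-0.63, SE 0.214, adjusted p = 0.0251). Both calls were lost with DESeq2 (adjusted p = 0.0623 and 0.0794). The first of them was also lost without the first SPHINX31 library (-0.32, adjusted p = 0.272), without the first combination library (-0.72, adjusted p = 0.0658) and without the second (-0.59, adjusted p = 0.11), and the call against untreated was lost without the first untreated library (-0.49, adjusted p = 0.16) or either combination library (-0.69 and -0.56, adjusted p = 0.073 and 0.13).

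OXTR, the oxytocin receptor, had 46 to 159 counts per library. Its level was 1.36 and 1.24 CPM in untreated cells, 2.73 and 1.81 with indisulam, 0.849 and 1.16 with SPHINX31, and 2.59 and 1.94 with the combination. As with F2R, the 4 libraries with indisulam were above the 4 without it, and the duplicates with indisulam lay far apart. The combination was 2.24-fold above SPHINX31 (log2 fold change 1.16, SE 0.234, adjusted p = 0.00105) and 1.74-fold above untreated (0.80, SE 0.221, adjusted p = 0.00858). The call against untreated was lost without the second untreated library (0.74, adjusted p = 0.0517) and without the first combination library (0.58, adjusted p = 0.106), whereas the call against SPHINX31 was kept when any single library was left out. Against indisulam alone the log2 fold change was -0.01 (95% interval -0.46 to 0.43, adjusted p = 0.978).

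Counted over the receptors that could be tested, 5 of 8 differed between the combination and SPHINX31, with F2R, F2RL1 and OXTR higher and NTSR1 and BDKRB1 lower, compared with 49.9% of all genes tested (23.4% higher and 26.5% lower). With 8 receptors, a share of 62.5% is not far from that background and is no result about the list. Against indisulam alone, 1 of 8 receptors passed, VIPR1, compared with 7.5% of all genes (3.17% higher and 4.32% lower). Against untreated, 5 of 7 receptors passed, with F2R, F2RL1, LPAR1 and OXTR higher and BDKRB1 lower, compared with 50% of all genes (23.8% higher and 26.3% lower). For the departure from additivity 0 of 7 receptors passed, as did 0% of all genes in the edgeR fit. Of the receptors 1, LPAR1, had an unadjusted p below 0.05, and DESeq2 called 0. Over all genes 1584 had an unadjusted p below 0.05, and DESeq2 called 31.

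For the single treatments, which the choice of members used, 43.7% of all genes were called with indisulam against untreated (20.1% higher and 23.5% lower), beside 6 of the 9 receptors, and 8.61% with SPHINX31 against untreated (4.94% higher and 3.67% lower), beside 3 of the 9. These counts contain the values that chose the list, so they test nothing and nothing is read from them. With indisulam alone the log2 fold changes of the 7 other receptors were 0.81 for OXTR, 0.52 for F2R, 0.23 for F2RL1, 0.23 for LPAR1, -0.03 for BDKRB2, -0.08 for ADORA2B and -0.64 for BDKRB1. The OXTR value rested partly on the first indisulam library and was 0.47 without it. With SPHINX31 alone the same values were 0.34 for LPAR1, 0.07 for F2R, 0.05 for ADORA2B, 0.03 for BDKRB1, -0.01 for F2RL1, -0.09 for BDKRB2 and -0.36 for OXTR. Both single treatments and the additivity term share the untreated libraries.

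**Figure D2:**
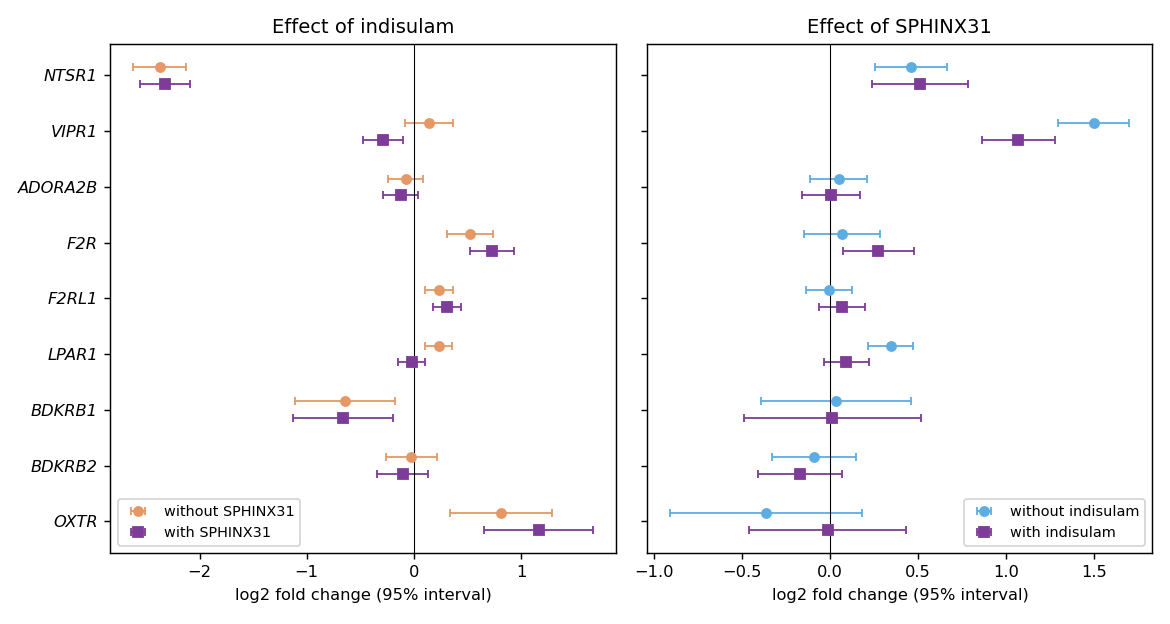
log2 fold change of each receptor with indisulam (left: against untreated, circles, and combination against SPHINX31, squares) and with SPHINX31 (right: against untreated, circles, and combination against indisulam, squares), with 95% intervals from the fit on all 8 libraries. NTSR1 lies at -2.37 and -2.32 on the left and VIPR1 at 1.499 and 1.07 on the right; the circles are a description because they chose the members.

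Levels of different receptors were compared only per kilobase of exon, as CPM per kb. The exon length joined the exons of all annotated transcripts of a gene, not those of the transcript expressed. The order of receptors is therefore approximate. In untreated cells the order was F2RL1 with 9.34 CPM per kb, LPAR1 with 8.77, NTSR1 with 5.50, ADORA2B with 5.01, BDKRB2 with 4.67, F2R with 1.71, BDKRB1 with 0.707, VIPR1 with 0.702 and OXTR with 0.286. The libraries of F2RL1 and LPAR1 overlapped, as did those of NTSR1 and ADORA2B, of ADORA2B and BDKRB2, and of BDKRB1 and VIPR1, and the other neighbours in the order did not. With SPHINX31 NTSR1 came after LPAR1 and F2RL1 again, at 7.57 ± 0.63 CPM per kb (SD, n = 2), and no neighbours overlapped. With indisulam NTSR1 lay below F2R, at 1.07 ± 0.14 CPM per kb, above VIPR1 at 0.774 ± 0.051 CPM per kb and without overlap. With the combination VIPR1 was below F2R at 1.63 ± 0.15 CPM per kb and NTSR1 came next at 1.51 ± 0.04 CPM per kb, and their libraries overlapped. The lowest places in all 3 treated groups were held by BDKRB1 and OXTR, which overlapped each other with indisulam and with the combination but not with SPHINX31. LPAR1 and F2RL1 held the highest levels in all 4 groups, with LPAR1 above F2RL1 only with SPHINX31.

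Over the 8 libraries, which share 4 treatments and are not independent, log2 CPM of F2R and F2RL1 had a Pearson r of 0.951 and NTSR1 and OXTR one of -0.917, the highest and the lowest among the 9. Of 12252 genes compared, those most like NTSR1 over the 8 libraries were ACSF2, an acyl-CoA synthetase (r = 0.9994), ZBED1, a zinc finger protein (r = 0.9978), and PIGV, a mannosyltransferase of GPI anchor synthesis (r = 0.9975). PIGV was at 19.8 ± 0.72 CPM in untreated cells, 7.42 ± 0.14 with indisulam, 22.9 ± 0.415 with SPHINX31 and 8.85 ± 0.04 with the combination (SD, n = 2). ACSF2 had the same order of groups over a smaller range, from 7.13 ± 0.26 CPM with indisulam to 13.3 ± 0.27 with SPHINX31. Those most like VIPR1 were ST3GAL1, a sialyltransferase (r = 0.9951), SQSTM1, the autophagy receptor p62 (r = 0.9867), and WDR82, a subunit of histone methyltransferase complexes (r = 0.9856). ST3GAL1 was at 52.1 ± 2.5 CPM in untreated cells, 54.95 ± 2.0 with indisulam, 98.6 ± 6.0 with SPHINX31 and 86.1 ± 0.63 with the combination. A correlation reads only the order and relative spacing of the libraries, and WDR82 spanned no more than 145 to 158 CPM between group means.

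The ligands of these receptors were partly absent from the same cells. VIP and OXT, which encode ligands of VIPR1 and OXTR, had 0 counts in all 8 libraries. A count of 0 allowed up to 0.0485 to 0.0588 CPM (3 counts) in a library by counting error alone. ADCYAP1, a further ligand gene of VIPR1, had 13 to 24 counts per library. KNG1, which encodes the precursor of bradykinin, had 11 to 21 counts per library. NTS, the neurotensin precursor, was at 47.8 and 47.2 CPM in untreated cells, 47.2 and 48.6 with indisulam, 35.6 and 36.5 with SPHINX31, and 41.4 and 40.0 with the combination. The NTS libraries with SPHINX31 were thus all below those without it, unlike those of its receptor. NTS differed between the combination and SPHINX31 (log2 fold change 0.17, SE 0.055, adjusted p = 0.0175) and between the combination and indisulam (-0.24, SE 0.054, adjusted p = 0.0186). F2, the thrombin precursor gene, was at 10.2 and 8.08 CPM in untreated cells, 5.43 and 5.77 with indisulam, 9.52 and 7.42 with SPHINX31, and 6.42 and 5.56 with the combination. Lower F2 with the combination than with SPHINX31 (-0.50, SE 0.137, adjusted p = 0.00829) stood beside higher F2R, its receptor, in the same libraries.

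Of 24 genes for ligands and their processing, 19 were tested. Between the combination and SPHINX31, 4 were higher and 5 lower with a median log2 fold change of -0.01, and between the combination and indisulam 1 was higher and 3 lower with a median of -0.03, while the medians over all genes were 0.00 in both comparisons. Over all genes 23.4% were higher and 26.5% lower in the first comparison and 3.17% and 4.32% in the second, so the first counts are near the background, and the calls against indisulam, 4 in all, numbered 2 without the first combination library and 2 without the second. NT5E (CD73), which forms adenosine outside the cell, fell by 0.64 on the log2 scale between SPHINX31 and the combination (adjusted p = 7.7e-07) and by 0.26 between indisulam and the combination (adjusted p = 0.012). ENTPD1 (CD39), the enzyme that supplies NT5E with AMP, was higher with the combination than with indisulam (0.73, adjusted p = 0.00195). An antisense gene over ENTPD1 had 1148 to 1467 counts, and with the strand setting of the counting not given the ENTPD1 values are uncertain. The same holds for ADA, whose opposite-strand partner PKIG had 648 to 870 counts, more than the 330 to 594 of ADA. ADA, which removes adenosine, and ECE1, a peptidase that cleaves neurotensin and other peptides, fell by 0.58 and 0.44 between SPHINX31 and the combination (adjusted p = 1.42e-04 and 7.78e-05). SLC29A1, an adenosine transporter, fell by 0.27 between indisulam and the combination (adjusted p = 0.00836). ADORA2B itself did not pass in either comparison, as given above.

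Of 17 further receptors of the same families, 10 were tested. With the combination 5 were higher and 1 lower than with SPHINX31, with a median log2 fold change of 0.43, and 1 was higher than with indisulam, with a median of -0.04. The share over all genes was 49.9% called in the first comparison (23.4% higher and 26.5% lower) and 7.5% in the second, and nothing particular to the family is read from its counts. The thrombin receptor homologue F2RL2 (PAR3) was at 2.83 and 2.67 CPM in untreated cells, 4.20 and 4.16 with indisulam, 5.02 and 5.32 with SPHINX31, and 8.36 and 8.35 with the combination. F2RL2 was highest with the combination, above both single treatments (0.69 against SPHINX31, SE 0.093, adjusted p = 4.04e-05, and 1.00 against indisulam, SE 0.096, adjusted p = 9.93e-05). It overlaps exons of IQGAP2 on the opposite strand, which had 114 to 137 counts, so its values are uncertain to that extent. LPAR6, another lysophosphatidic acid receptor, and ADORA1, the Gi-coupled adenosine receptor, were higher with the combination than with SPHINX31 (0.81 and 0.49, adjusted p = 8.61e-04 and 0.0154), and LPAR5 was lower (-0.67, adjusted p = 0.00111). NTSR2 had 0 counts in all libraries and VIPR2 had 5 to 19 counts per library.

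**Figure D3:**
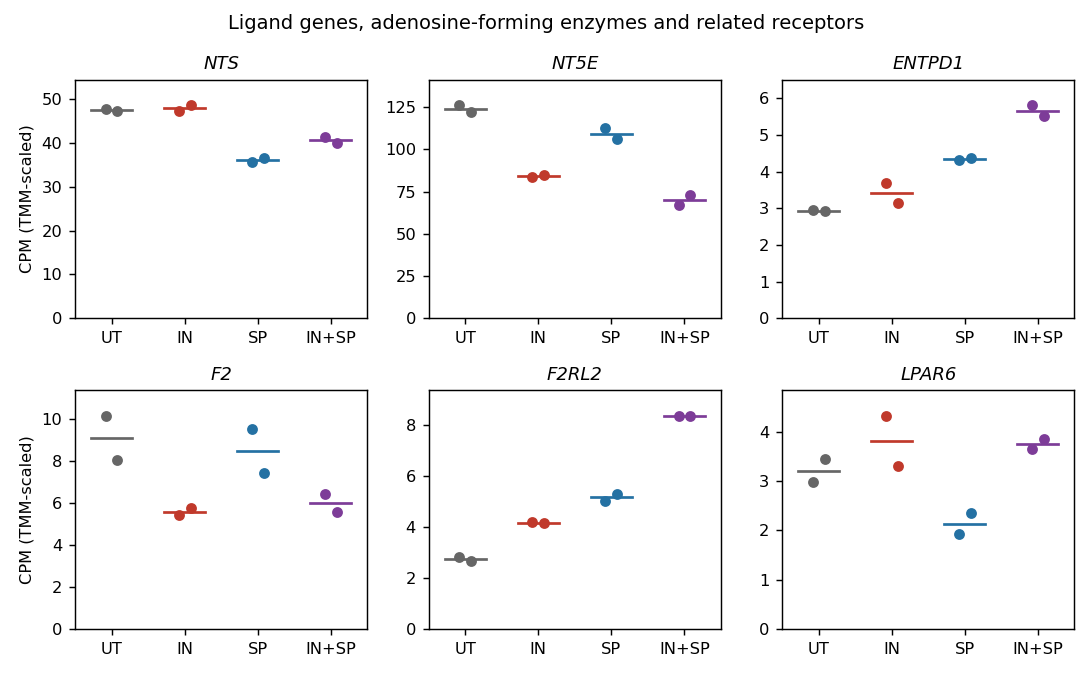
Level (CPM after TMM scaling, linear axis from 0) of NTS, NT5E, ENTPD1, F2, F2RL2 and LPAR6 in untreated (UT), indisulam (IN), SPHINX31 (SP) and combination (IN+SP) libraries; points are libraries and the bar is the mean of 2. NTS is at 35.6 to 41.4 CPM in the SPHINX31 and combination libraries and at 47.2 to 48.6 CPM in the others, and F2RL2 is highest with the combination at 8.36 and 8.35 CPM.

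The signalling genes downstream of the receptors were counted in the same way, to be read against 23.4% higher and 26.5% lower of all genes between the combination and SPHINX31 and 3.17% and 4.32% between the combination and indisulam. Of 30 G protein subunit genes 22 were tested, and between the combination and SPHINX31 1 was higher (GNG2, 0.51, adjusted p = 0.0146) and 6 were lower, among them GNAZ, an alpha subunit of the Gi family (-1.26, adjusted p = 8.86e-06), GNG4 (-0.51, adjusted p = 0.0269) and GNAI2 (-0.30, adjusted p = 5.58e-04). The count of lower subunits is at that background, and 4 in all were called without the first combination library. GNAZ overlaps RSPH14 on the opposite strand, with 16 to 44 counts. Between the combination and indisulam 0 of the 22 passed in edgeR and 0 in DESeq2, and 3 had an unadjusted p below 0.05. Of 26 receptor kinases, arrestins and RGS proteins, which end receptor signalling, 21 were tested, 4 were higher and 6 lower with the combination than with SPHINX31, and 2 were lower than with indisulam. The calls against SPHINX31 are near the background of 49.9%. Lower members were RGS16 (-0.99, adjusted p = 3.17e-05), RGS20 (-0.80, adjusted p = 5.08e-04) and GRK3 (-0.67, adjusted p = 2.16e-05) against SPHINX31, and ARRB1 (-0.33, adjusted p = 0.00482) and RGS2 (-0.29, adjusted p = 0.0242) against indisulam. Of the calls against indisulam, 0 were left without the second combination library and 1 without the first or without either indisulam library. RGS5 was lower as well (-1.14 against SPHINX31, adjusted p = 2.42e-04) but overlaps a noncoding gene on its own strand.

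Of 42 downstream signalling effectors, most of them of the cyclic AMP and phospholipase C pathways, 38 were tested. Between the combination and SPHINX31, 3 were higher and 14 lower with a median log2 fold change of -0.06, and between the combination and indisulam 2 were higher and 2 lower. Over all genes 49.9% and 7.5% were called in these comparisons, so the number of effectors called is no larger than the background in the first. The IP3 receptors, which release calcium downstream of the Gq-coupled members, included ITPR3 at 243 and 231 CPM with SPHINX31 and 154 and 149 with the combination (-0.64, SE 0.050, adjusted p = 2.88e-07). ITPR3 overlaps UQCC2 on the opposite strand, with 1774 to 2097 counts. ITPR2 was at 41.2 and 45.7 CPM with SPHINX31 and at 24.8 and 24.6 with the combination (-0.81, SE 0.083, adjusted p = 3.31e-06), and it was lower than with indisulam too (-0.43, SE 0.084, adjusted p = 0.00714). PDE3B, which degrades cyclic AMP, and RAPGEF4, a cyclic AMP sensor, were lower with the combination than with SPHINX31 (-1.24 and -0.62, adjusted p = 5.06e-04 and 0.00577). Against indisulam, ADCY9 and PRKCA were higher (0.26 and 0.18, adjusted p = 0.0423 and 0.0457) and PDE8A was lower (-0.21, adjusted p = 0.031). The counts against indisulam depended on single libraries, since no effector passed without the first indisulam library or without the second combination library.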

How the data were processed

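Poly(A)-selected stranded RNA libraries of A549 cells were analysed, 4 groups of 2 technical duplicates. The authors deposited raw counts per gene for each library, made per the labels with HISAT2 2.2.1 and HTSeq on GRCh38. The annotation release and strand setting of the counting were not given in the sources used here. Rows that named no gene held reads left unassigned (83.0% to 86.0% of reads were assigned) and were left out.

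Counts were fitted in edgeR 4.0.16 (R 4.3.3) with filterByExpr, TMM factors (0.978 to 1.02), glmQLFit and glmQLFTest over all 8 libraries, without a replicate block and with residual degrees of freedom of 4. P-values were Benjamini-Hochberg adjusted over 18661 genes at a threshold of 0.05. The scripts were tested on simulated data. All 9 receptors were named. From each list up to 4 genes with the largest absolute log2 fold change in each comparison of the combination with a single drug were named if they passed and averaged at least 0 log2 CPM. The ligands NTS, VIP, F2, KNG1 and OXT were named whatever their value, and so were the 3 genes most correlated with NTSR1 or VIPR1. From the lists, ADCYAP1, NTSR2 and VIPR2 were named outside these rules. The receptors and lists were chosen with earlier results of these data known. The limit given for a count of 0 covers counting error only. Positions, exons and overlaps were read from a GENCODE annotation and promoters from RefSeq. Alternatives were DESeq2 1.42.0, other scalings and filters, GC content offsets, a replicate block and leaving out each library.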

Additional observations from a re-analysis of the deposited data

How the results depend on the processing

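NTSR1 kept its call between the combination and SPHINX31 under every alternative tried, with log2 fold changes of -2.39 to -2.22 when a library was left out, and VIPR1 kept its call between the combination and indisulam, with 0.98 to 1.16. A lone library left in a group was assumed to vary like the other groups. When a library was left out, the receptors called between the combination and SPHINX31 numbered 4 to 5, against indisulam 1, against untreated 3 (without the first combination library) to 5, and for additivity 0; for the comparisons that chose the list, which test nothing, the counts were 4 to 6 with indisulam alone and 2 to 3 with SPHINX31 alone. Over all genes, 7340 to 9523 were called between the combination and SPHINX31, 440 to 1612 against indisulam (main value 1399; 696 without the first indisulam, 609 without the first combination and 440 without the second combination library) and 7209 to 9565 against untreated. With indisulam alone 5887 to 8379 were called, with SPHINX31 alone 482 to 1810 (main value 1606; 482 and 539 without the first or second untreated and 697 without the first SPHINX31 library), and for additivity 0 to 1. The lists gave, between the combination and SPHINX31, 7 to 9 ligand genes, 4 to 6 family receptors, 40 to 53 other receptors, 4 to 8 G protein subunits (4, from 7, without the first combination library), 7 to 10 kinases, arrestins and RGS proteins, 12 to 17 effectors and 5 to 7 CREB-related genes. Between the combination and indisulam they gave 2 to 5, 1, 4 to 13, 0 to 1, 0 to 2, 0 to 4 and 0 to 1, the lowest counts mostly without a combination or an indisulam library.

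The replicate numbers as given did not pair the libraries in one direction. Over 9980 genes, deviations of equally numbered libraries correlated at 0.452 for untreated and SPHINX31. They correlated at -0.566 for untreated and indisulam and at -0.492 for indisulam and SPHINX31. With the combination the correlations were 0.0118 to 0.167. The duplicates of untreated, indisulam and SPHINX31 thus differed along a related pattern, with the indisulam numbers in the opposite order. The main fit did not model this pattern, and its source was not tested. With the replicate block 2 effectors passed between the combination and indisulam, from 4, and no receptor changed its call. Exchanging the indisulam numbers in the block, chosen after seeing the data, gave 2252 genes and 2 receptors between the combination and indisulam, 2630 genes with SPHINX31 alone and 12 for additivity. With only the libraries of the groups compared, 2 effectors passed against indisulam. GC content offsets gave 2302 genes between the combination and indisulam, 2647 with SPHINX31 alone and 19 for additivity, and against indisulam 1 G protein subunit, from 0, 4 kinases, arrestins and RGS proteins, from 2, and 2 CREB-related genes, from 1. The offsets with the block gave 1 G protein subunit, and total counts alone gave 1 G protein subunit and 1 kinase, arrestin or RGS gene. For additivity DESeq2 called 31 genes and a looser filter 94. With total counts alone, the share of called genes that were higher moved from 42.3% to 65.4% between the combination and indisulam and from 57.3% to 72.3% with SPHINX31 alone; no tested receptor changed its call there.

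The reversals all concerned differences that never passed, with these ranges when a library was left out. LPAR1 between the combination and SPHINX31 was 0.000972 with a stricter filter, 0.000895 with GC offsets, 0.0011 with offsets and block, and -0.0448 to 0.0211 without a library. BDKRB2 there was -0.241 to 0.0665. Between the combination and indisulam, ADORA2B was -0.00206 with RLE factors, -0.00214 with DESeq2, -0.0151 with GC offsets, -0.015 with offsets and block, and -0.0191 to 0.0327 without a library. BDKRB1 was -0.0251 with GC offsets, -0.024 with offsets and block, and -0.0916 to 0.115 without a library, and OXTR was 0.0306 with total counts and -0.277 to 0.329 without a library. For additivity the ranges were -0.0963 to 0.00417 for ADORA2B, -0.291 to 0.318 for BDKRB1 and -0.27 to 0.0899 for BDKRB2. BDKRB2 against untreated passed with a looser filter (-0.19, adjusted p = 0.0347) and with GC offsets and block (-0.21, adjusted p = 0.0371). The cause of these shifts was not tested. BDKRB1 and OXTR had the fewest counts of the receptors, which limits their precision.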

Other observations

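Beyond the families of the 9 receptors, 118 of 218 further non-sensory G protein-coupled receptors were tested. With the combination 27 were higher and 23 lower than with SPHINX31, at a median log2 fold change of 0.07, and 3 were higher and 10 lower than with indisulam, at a median of -0.05. The medians over all genes were 0.00, and 49.9% of all genes were called in the first comparison (23.4% higher and 26.5% lower) and 7.5% in the second. The calls against indisulam, 13 in all, numbered 7 without the first combination library and 4 without the second. GPRC5B, an orphan receptor, was at 1.55 and 1.85 CPM with SPHINX31 and at 5.28 and 4.65 with the combination (1.54, edgeR adjusted p = 6.57e-07). ADGRE2, an adhesion receptor, and C5AR1, the receptor for complement C5a, were lower with the combination than with SPHINX31 (-1.45 and -1.24, adjusted p = 1.04e-06 and 1.16e-06). With the strand setting of the counting not given, GPRC5B and ADGRE2 are uncertain, since IQCK (246 to 445 counts) and ZNF333 (339 to 591 counts) overlap them on the opposite strand. GPR135 was higher (1.92, adjusted p = 5.91e-07) but shares exonic bases with L3HYPDH on the same strand, so its value is uncertain. S1PR1, a sphingosine-1-phosphate receptor, was at 0.653 and 0.883 CPM with indisulam and at 1.504 and 1.75 with the combination (1.09, adjusted p = 0.00495). The serotonin receptor HTR1B, the succinate receptor SUCNR1 and the calcitonin receptor-like receptor CALCRL were lower with the combination than with indisulam (-0.59, -0.56 and -0.54, adjusted p = 0.00488, 9.9e-04 and 0.0242).

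Of 13 CREB coactivators and cyclic AMP-responsive genes, all tested, 2 were higher and 5 lower with the combination than with SPHINX31, at a median of 0.03, and 1 was lower than with indisulam, at a median of -0.03, near the 49.9% and 7.5% of all genes called. CRTC1, a coactivator of CREB, was at 14.7 and 13.5 CPM with SPHINX31 and at 5.41 and 5.82 with the combination (-1.33, adjusted p = 1.05e-07). CREM and FOS were lower (-0.38 and -0.32, adjusted p = 2.56e-04 and 0.0204) and NR4A2 was higher (0.54, adjusted p = 1.84e-04). CREM overlaps CUL2 on the opposite strand, which had 3509 to 4828 counts against 930 to 1408 for CREM, so its value is uncertain. NR4A1 was lower with the combination than with indisulam (-0.27, adjusted p = 0.0131), and no gene of this list was called there without the second indisulam library or without either combination library.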
